A study of Triticum aestivum with 8 samples.

Results

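The transcripts described here are 100 probe sets of a wheat array whose signal in cold-acclimated crowns was higher in the freeze susceptible (FS) line than in the freeze resistant (FR) line, although both lines had a similar signal before cold treatment. They were taken from 61115 probe sets, after 175 controls were set aside. FR (SD16029) and FS (SD16169) are mutant lines selected after azide treatment of Winoka, a winter wheat. Plants grew 4 to a pot in a greenhouse at 22 to 28°C with a photoperiod of 14 h (NT, the non-acclimated controls), or were then moved to 4°C for 4 weeks (CA, cold-acclimated). Crown tissue, defined in the study as the part of the plant directly above the roots, was sampled, and each array received RNA pooled from 3 biological replicates. There were 2 arrays for each of the 4 groups, FR NT, FS NT, FR CA and FS CA, and the study treated them as technical replicates. Every p-value and interval given here thus covers the spread between arrays and not that between plants, and the number of arrays limits the precision. Each line is 1 mutant, so that the other mutations it carries cannot be told apart from its freeze survival. NT plants were harvested at the leaf stage at which the CA plants were moved to the cold chamber. In every change from NT to CA, plant age and place of growth thus cannot be told apart from temperature.

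Cold acclimation is the gain in freezing survival that winter cereals acquire over weeks at low, non-freezing temperature. In the crown, which holds the shoot meristem from which the plant regrows in spring, it brings a fall in transcripts of growth and photosynthesis and a gain in transcripts of protective proteins such as COR and LEA proteins (cold-regulated and late embryogenesis abundant) and in the turnover of fructan, the storage carbohydrate of wheat.

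Both FS CA arrays had to read at least 5 on the log2 scale, and the means of FR NT and FS NT had to lie within 0.5 of each other. Probe sets of the vernalization, Cbf and Cor/Lea genes shown in the heat maps of the study were left out (28 of 41 genes could be matched, to 35 probe sets), after which 23537 probe sets remained. The 100 with the largest gap, the lower FS CA array minus the higher FR CA array, were taken. The members were thus chosen by the CA signals of both lines and by their NT means, and these values are a description. The gap ran from 0.776 to 3.21 with a median of 0.994, and it was over 1 in 47 probe sets and over 2 in 7. The difference between the CA means of the lines was 0.85 to 3.54, with a median of 1.25, against 0.08 over the 23537. Just inside the limit were Ta.16062.1.S1_at (gap 0.782), Ta.7221.2.S1_at (0.781) and TaAffx.59001.1.S1_at (0.776). Just outside were Ta.13538.1.A1_at, TaAffx.131520.1.S1_x_at and TaAffx.94344.1.S1_at, each with a gap of 0.77. Both FS CA arrays lay above both FR CA arrays in 32.7% of the 23537 probe sets. The same rule with the lines exchanged kept 23395 probe sets, of which 269 had a gap over 1 and 106 a gap over 2, and the largest was 6.10.

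The 100 probe sets belong to 90 sequence clusters, the number that follows Ta or TaAffx in a probe set name, and 18 of them share a cluster with another member. The annotation of the array gives a gene symbol to 1273 of the 61115 probe sets, and 8 of the 100 have one. The other 92 are given by their probe set name. Of the 100, 25% end in x_at, the ending of probe sets with probes that can match other sequences, against 16.6% of the 23537, and such a signal can hold RNA of related genes. A floor of 2.15 is shared by 31.9% to 32.7% of the probe sets of an array, and the array medians were 2.86 to 2.95. Of the members, 29 had at least 1 array under the array median, and in 16 both NT means lay under the lowest array median, so that an increase of such a probe set was measured from background.

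The NT arrays did not sort by line. Over 25059 probe sets with a mean over 5, the root mean square log2 difference was 0.438 between the FR NT arrays and 0.422 between the FS NT arrays, but 0.318 to 0.371 between an FR NT and an FS NT array. After acclimation the arrays of a line differed by 0.451 in FR and 0.312 in FS, and arrays of different lines by 0.449 to 0.521. FR CA 2 was thus as close to FS CA 2 (0.449) as to FR CA 1 (0.451), and the FR CA arrays did not clearly sort by line either. Between the lines, CA arrays of the same replicate number differed by 0.469 and 0.449, and those of different number by 0.519 and 0.521. Among the 100 members, the NT arrays were fully separated by line in 16, by replicate number in 21, and in 55 by the remaining split, FR NT 1 with FS NT 2 against FR NT 2 with FS NT 1. The same shares of the 23537 were 16.4%, 36.7% and 43.6%. The median absolute difference along this split was 0.25 in the members, against 0.10 between the lines, which the rule had limited. It was over 0.5 in 26 members and over 1 in 3. The arrays are named by their labels throughout, and whether labels of NT arrays had been exchanged was not tested. An exchange would bear on the NT limit and on every change from NT. When 1 array was left out, the change from NT took the opposite sign in at least 1 fit for 6 members in FS and 4 in FR. None of these had been called by limma. Some members called in the fit to all arrays lost the call in at least 1 such fit, in both lines. Among them was TaAffx.128682.3.A1_at in FR, whose limma adjusted p in the fit to all arrays rounds to the threshold of 0.05.

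**Figure D1:**
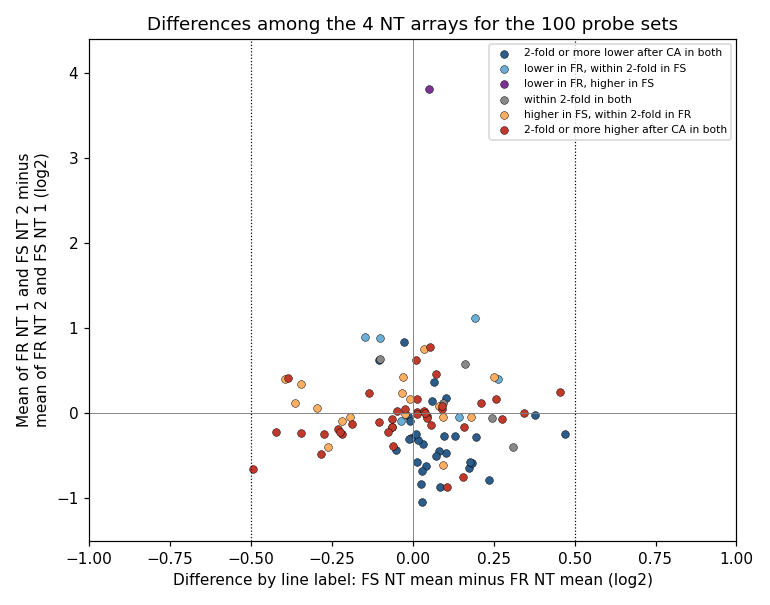
Difference between the lines among NT arrays (x axis, log2, with dotted lines at the limit of 0.5) against the difference along the split of FR NT 1 and FS NT 2 from FR NT 2 and FS NT 1 (y axis, log2), 1 point for each of the 100 probe sets, coloured by the change after cold acclimation. Ta.28748.2.A1_at stands alone at 3.81, and most of the 31 probe sets that were lower after acclimation in both lines lie under 0 on the y axis.

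With a change of 2-fold or more between group means as the measure, the 100 probe sets reached their higher level in FS CA crowns along different courses. In 39 the signal was 2-fold or more higher after acclimation in both lines, and in 31 it was 2-fold or more lower in both. It was higher in FS and within 2-fold in FR in 18, lower in FR and within 2-fold in FS in 6, within 2-fold in both in 5, and lower in FR but higher in FS in 1. Among the 23537 probe sets these courses made up 27.0%, 17.0%, 3.31%, 1.56%, 47.7% and 0.00425%, the last being that 1 probe set. Leaving out 1 array moved the number higher in both to between 34 and 40, lower in both to 31 or 32, higher in FS alone to between 16 and 23 and lower in FR alone to between 4 and 7. With the arrays centred on the spike-in controls, which were 0.77 higher on the CA than on the NT arrays, 21 were higher in both lines and 29 in FS alone.

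**Figure D2:**
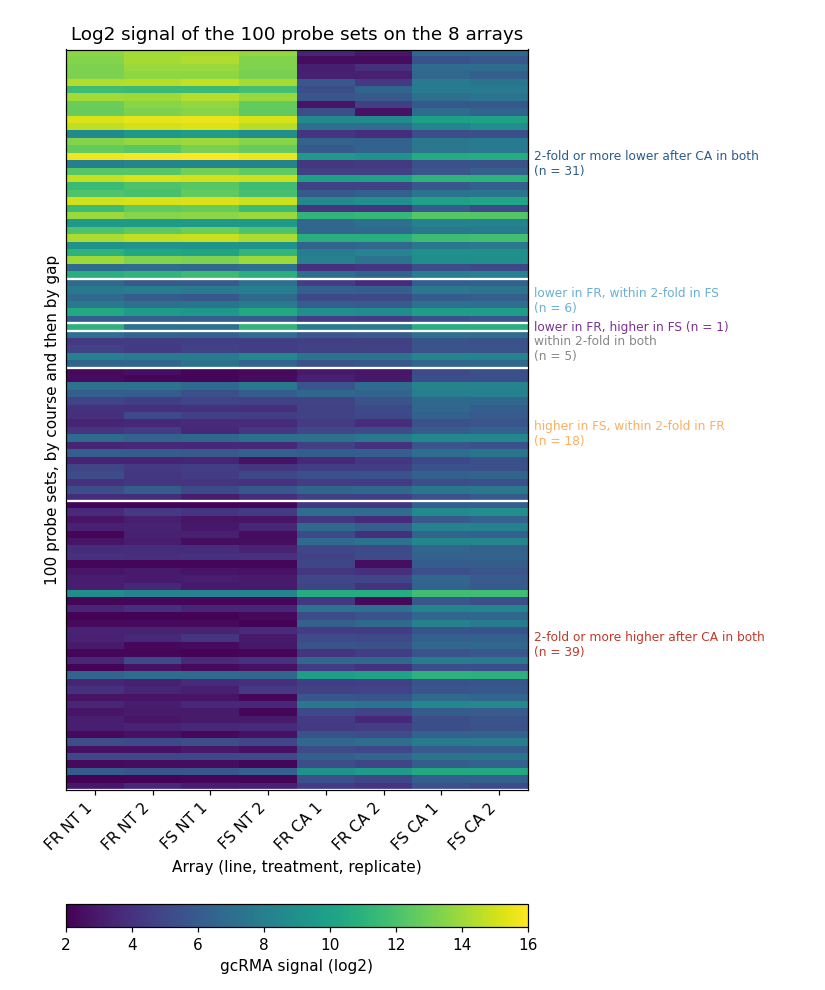
Log2 gcRMA signal (colour) of the 100 probe sets (rows of cells, ordered by course and then by gap) on the 8 arrays (columns). The 31 probe sets in the top block were mostly bright on the NT arrays (median of the means 13.19 in FR and 13.21 in FS) and lower on all CA arrays (median of the means 6.17 in FR and 7.63 in FS), whereas the 39 in the bottom block were mostly dim on the NT arrays (median 3.03 in FR and 3.02 in FS).

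By the linear model fitted with limma to all 61115 probe sets (adjusted p under 0.05), 58 of the 100 were higher and 33 lower in FS CA than in FS NT, where 16.4% and 13.8% of all probe sets were called. In FR, 33 were higher and 35 lower after acclimation, with 15.3% and 13.6% of all probe sets called. The CA arrays chose the members, so that nothing is read from these shares. The same holds for the calls given below for each course, since the courses were sorted by these same changes. In all, 33 were called higher in both lines, 33 lower in both, 25 higher in FS and not called in FR, 2 lower in FR and not called in FS, and 7 in neither. For FS CA against FR CA, the contrast that chose them, 6 were called higher (0.126% of all probe sets), with 90 at an unadjusted p under 0.05. This number was 1 to 20 when 1 array was left out (1 without any 1 of the NT arrays, 20 without FR CA replicate 1), 1 with the replicate block, 38 with spike-in centring and 0 with robust variances. In the comparison of the cold responses 1 was called with a higher response in FS (0.0442%), Ta.7989.1.A1_at, and the number was 1 to 12 without 1 array, 4 with values raised to the array median, 15 with spike-in centring and 0 with robust variances. Between FS NT and FR NT, limited by the rule, 0 were called (0.0213%), with 1 at an unadjusted p under 0.05.

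**Figure D3:**
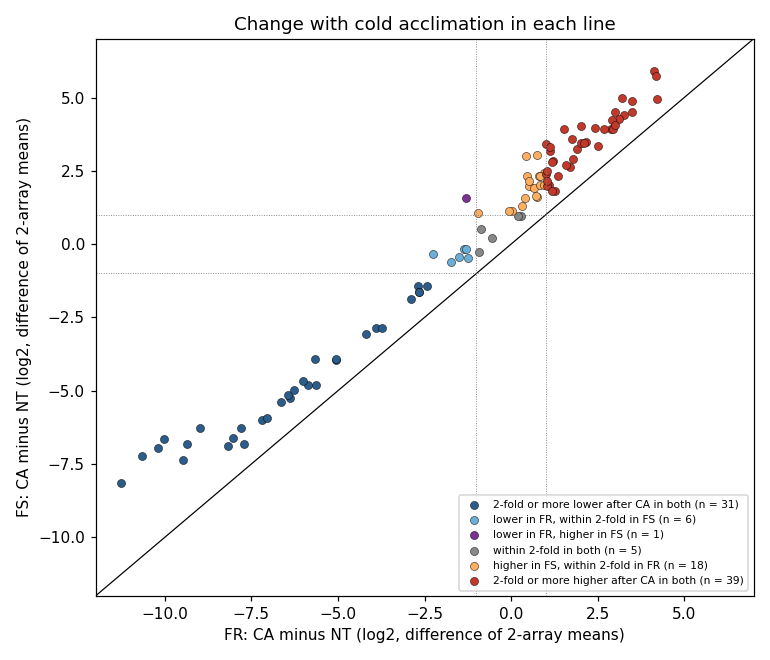
Change from NT to CA in FR (x axis) and in FS (y axis), both as log2 differences of 2-array means, for the 100 probe sets. Every point lies above the line of equal change, as the rule requires, and the points form a group with large decreases in both lines (-11.27 to -2.43 in FR, the first measured down to a background signal) and a group with increases (1.02 to 4.20 in FR), dotted lines marking a 2-fold change.

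The 31 probe sets that were lower in both lines had NT means from 6.98 to 15.81 in FR, with a median of 13.19. Sorted by this decrease, all 31 were called lower in both lines by limma (13.8% of all probe sets in FS, 13.6% in FR). They were lower after acclimation by a median log2 difference of -6.37 in FR (range -11.27 to -2.43, or -10.87 to -2.43 with values raised to the array median) and -5.15 in FS (range -8.16 to -1.44). The median of their CA means was 6.17 in FR and 7.63 in FS. Both lines had thus lost most of the NT signal of these transcripts after 4 weeks of cold, and FR, by the rule, more of it. In bulk crown tissue, fewer cells of a type and less RNA per cell cannot be told apart. In 25 of the 31 the NT arrays were separated by the split described above, in 21 of them with FR NT 2 and FS NT 1 higher.

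The largest gap was that of Ta.3249.1.S1_at, without a gene symbol. Its signal was 13.54 and 14.08 in FR NT, 14.11 and 13.72 in FS NT, 3.46 and 2.85 in FR CA, and 6.67 and 6.72 in FS CA. The change was -10.66 in FR (95% interval -11.45 to -9.86, limma adjusted p = 7.18e-05) and -7.22 in FS (-8.01 to -6.43, adjusted p = 0.000157), a decrease of 149-fold in FS. A second probe set of the cluster, Ta.3249.2.S1_x_at, read 13.21 and 13.60 in FR NT, 13.60 and 13.11 in FS NT, 3.23 and 3.21 in FR CA, and 6.63 and 6.16 in FS CA. The third, Ta.3249.3.A1_at, stood at 12.34 and 12.35, 13.06 and 12.57, 4.63 and 4.63, and 5.72 and 6.29 in the same order of groups. The first and the second probe set of the cluster were thus close to background in FR CA. The third read the same 4.63 on both FR CA arrays, above the array medians. Whether this value was the background of that probe set was not tested.

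Ta.22984 contributed both the second and the third largest gap. Ta.22984.2.S1_x_at read 13.38 and 14.11 in FR NT, 14.33 and 13.33 in FS NT, 2.48 on both FR CA arrays, and 5.55 and 5.79 in FS CA. Its FR CA signal was under the median of both arrays, so that its decrease in FR was at least 1873-fold, and it was 286-fold in FS. For Ta.22984.1.S1_x_at the values were 13.21 and 13.88 in FR NT, 13.88 and 13.30 in FS NT, 3.18 and 3.87 in FR CA, and 6.91 and 6.95 in FS CA. In both probe sets FR NT 2 and FS NT 1 were the higher NT arrays, by less than the change with cold. The cluster holds another bright probe set, Ta.22984.3.S1_at, which is no member and did not show this course. It read 10.93 and 11.08 in FR NT, 11.13 and 11.09 in FS NT, 11.44 and 11.38 in FR CA, and 11.64 and 11.30 in FS CA, where the lines overlapped.

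The other clusters with several members among these 31 were Ta.1139, Ta.1130 and Ta.20639. Ta.1139.1.S1_x_at stood at 14.37 and 14.47 in FR NT, 14.76 and 14.15 in FS NT, 5.79 and 4.34 in FR CA, and 7.81 and 7.46 in FS CA. Ta.1139.1.S1_at read 5.77 and 5.93 in FR CA and 7.16 and 7.32 in FS CA, from NT values between 13.84 and 14.44. The 3 probe sets of Ta.1130 were among the brightest of all members in NT crowns. Ta.1130.2.S1_x_at, for example, went from 15.68 and 15.94 to 9.51 and 9.21 in FR and from 15.97 and 15.64 to 10.63 and 10.67 in FS, and thus stayed well above background in both lines. Ta.20639.1.S1_x_at went from 13.40 and 13.81 to 6.48 and 6.34 in FR, and from 13.93 and 13.45 to 7.61 and 7.75 in FS. Within each of these clusters, which can hold probes for the same transcript and are not independent, the lines had moved the same way.

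**Figure D4:**
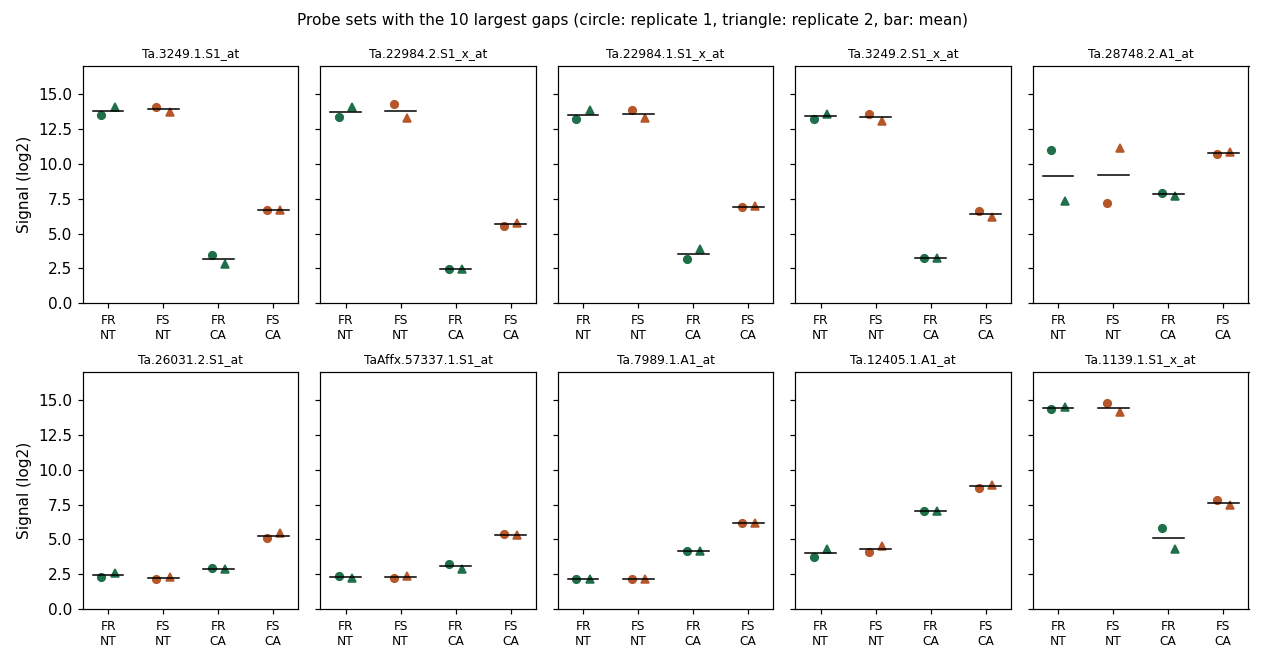
Log2 signal on each array (points) and mean of each group (bars) of the 10 probe sets with the largest gaps, FR in green and FS in orange. In each panel both FS CA points lie above both FR CA points, and in Ta.28748.2.A1_at the NT arrays of each line lie far apart (10.97 and 7.32 in FR, 7.21 and 11.18 in FS).

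Of the 8 members with a gene symbol, 5 were lower in both lines. LOC543283, known in the gene table as PRK, encodes phosphoribulokinase, an enzyme of the Calvin cycle that regenerates the acceptor of CO2 in the chloroplast. Its probe set Ta.23158.1.S1_at read 11.53 and 12.10 in FR NT, 12.34 and 11.63 in FS NT, 4.74 and 4.78 in FR CA, and 5.82 and 6.30 in FS CA. By limma it fell 133-fold in FR (log2 change -7.05, SE 0.34, adjusted p = 0.000242) and 60.8-fold in FS (log2 change -5.93, SE 0.34, adjusted p = 0.000346). The CAT1 gene encodes a catalase, which breaks down hydrogen peroxide, and its probe set Ta.442.1.S1_at read 8.66 and 9.47 in FR NT and 9.68 and 8.91 in FS NT. After acclimation it stood at 4.14 and 3.85 in FR and at 5.28 and 5.39 in FS, a limma change of -5.06 (adjusted p = 0.000827) and -3.96 (adjusted p = 0.00167). Without 1 array the changes were -5.47 to -4.66 and -4.34 to -3.57. A second probe set annotated to CAT1 was at the floor in all groups.

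LOC543256 (Ta.3795.1.S1_x_at), without a further name in the gene table, went from 12.87 and 13.51 to 2.74 and 4.66 in FR and from 13.72 and 12.70 to 5.86 and 5.84 in FS. The FR CA arrays differed by more than the gap between the lines of 1.18, and without 1 array the change was -10.45 to -8.53 in FR and -7.87 to -6.85 in FS. For LOC732707 (Ta.27660.1.S1_at) the signal was 12.12 and 12.54 in FR NT, 12.89 and 12.13 in FS NT, 6.61 and 6.77 in FR CA, and 7.66 and 7.74 in FS CA. Another probe set of this gene, Ta.27660.1.S1_x_at, which is no member, stood at 6.96 and 6.73 in FR CA and at 7.66 and 7.78 in FS CA, the same order of the lines. LOC543168 (Ta.6869.1.S1_at) was less bright, at 6.94 and 7.02 in FR NT, 6.86 and 7.23 in FS NT, 3.97 and 4.20 in FR CA, and 5.30 and 5.04 in FS CA.

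Since PRK is a gene of photosynthesis and the crown was described as tissue that does not photosynthesize, green-tissue genes were looked at by name. The list held 33 probe sets of 4 genes, 9 of them over 5 in NT crowns. PRK was not among the listed names, and no probe set on the list was a member. PsbO and PsbP are proteins of the oxygen-evolving complex of photosystem II. They had NT group means of 14.63 and 14.61 (FR and FS) and of 13.96 and 14.15, so that these green-tissue transcripts were abundant in the sampled crowns. Their CA means were 13.30 and 13.59, and 10.10 and 10.35. The summed signal of the list, as log2, was 17.82 to 18.15 on the NT arrays, 17.43 and 17.57 in FR CA, and 17.48 and 17.50 in FS CA. This sum is carried by 2 probe sets of rbcL (LOC100049018), the large subunit of Rubisco, which read 16.08 to 16.87 on all arrays. Without them it was 15.86 to 16.17 on the NT arrays, 14.49 and 14.36 in FR CA, and 14.67 and 14.59 in FS CA. Another probe set of PsbP, TaAffx.120874.1.S1_x_at, went from a mean of 12.20 in both lines to 7.27 and 7.15 in FR CA and 7.57 and 7.43 in FS CA. Of the 33, 4 were called lower after acclimation in each line by limma and 0 differed between FS CA and FR CA (0 at an unadjusted p under 0.05), with FS CA wholly above FR CA in 4 and FR CA wholly above FS CA in 3. Histone genes, which mark dividing cells and thus the meristem, had 18 probe sets with a gene symbol and no member, and 17 were called lower in each line. The remaining one, Ta.27192.1.S1_s_at, was called higher in both, by 0.99 in FR and 1.31 in FS, whereas another probe set of its gene (LOC732713) was called lower. Their summed log2 signal went from between 18.45 and 18.66 on the NT arrays to 12.11 and 12.25 in FR CA and 11.95 and 11.98 in FS CA. FR CA was wholly above FS CA in 8 of them and FS CA in 3, with a median difference between the lines of -0.17. None of the root markers looked for (nitrate and phosphate transporters, aquaporins) had a name in the annotation.

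**Figure D5:**
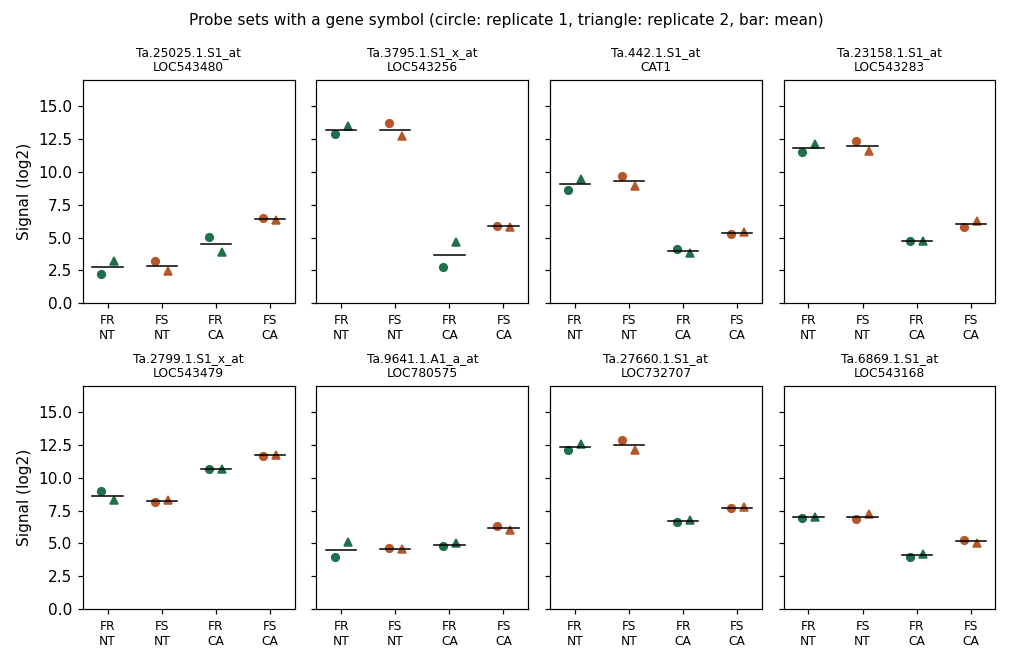
Log2 signal on each array (points) and mean of each group (bars) of the 8 members with a gene symbol, FR in green and FS in orange. CAT1, LOC543283, LOC543256, LOC732707 and LOC543168 were lower in both lines after acclimation, and LOC543480 (Em), LOC543479 and LOC780575 (6-FEH) had their highest signal in FS CA.

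The 39 probe sets that were 2-fold or more higher in both lines had a larger change in FS, as the rule requires. The median log2 difference from NT was 2.02 in FR (range 1.02 to 4.20) and 3.46 in FS (range 1.79 to 5.91). With values under the array median raised to it, the medians were 1.70 and 3.24, and not all 39 stayed 2-fold higher in FR. The lowest FR change was then 0.64, in TaAffx.91847.1.S1_at, whose FR CA arrays read 4.28 and 2.32. All 39 were called higher in FS by limma, and 31 in FR, where 16.4% and 15.3% of all probe sets were called. The 39 had been sorted by these same changes, so that the calls are a description. The median of their CA means was 5.12 in FR and 6.32 in FS, all FS CA means being at least 5.34. The largest increase in FS was that of TaAffx.143995.17.S1_s_at, from 2.52 and 2.50 to 8.41 and 8.45 (5.91, adjusted p = 8.38e-05), at least 45.2-fold since both NT arrays lay under the array median. In FR the same probe set went from 2.72 and 3.15 to 6.92 and 7.20. Ta.28838.1.S1_x_at followed, with 2.36 and 2.15 in FS NT, 8.14 and 7.81 in FS CA, 2.36 on both FR NT arrays, and 6.27 and 6.82 in FR CA. TaAffx.101638.1.S1_at, Ta.10605.1.A1_at and Ta.14516.2.S1_a_at were 4.99, 4.96 and 4.87 higher in FS, and 3.20, 4.20 and 3.49 higher in FR. Of these 5, Ta.10605.1.A1_at (NT values of 3.14 to 3.58) and Ta.14516.2.S1_a_at (3.51 to 3.96) had 0 arrays under the array median. In the others at least 1 NT array lay under it, which limits the size of the measured change. Ta.14516.2.S1_a_at read the same 3.51 on FR NT 1 and on both FS NT arrays. Its increase may thus also have been measured from background, which was not tested.

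Ta.7989.1.A1_at was the member whose response to cold was called different between FS and FR (difference 2.00, limma adjusted p = 0.00252). The adjusted p was 0.000175 to 0.119 under the alternatives other than robust variances, with which it was 0.362, and the call was also lost with spike-in centring (0.119). It lay at or next to the floor on all NT arrays (2.15 and 2.15 in FR, 2.15 and 2.18 in FS), at 4.20 and 4.15 in FR CA, and at 6.17 and 6.20 in FS CA. All NT arrays lay under the array median, so that the increase was at least 2.36-fold in FR and at least 9.55-fold in FS. Its arrays agreed within 0.05 in each group, and values held at the floor on the NT arrays have little spread. Ta.12405.1.A1_at had a higher signal before acclimation, 3.74 and 4.30 in FR and 4.09 and 4.52 in FS. After acclimation it read 7.01 on both arrays of FR, and 8.71 and 8.89 in FS.

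LOC543480, with the other names Em and EMH2, encodes an Em protein, a LEA protein of seeds whose gene responds to abscisic acid. Its probe set Ta.25025.1.S1_at read 2.25 and 3.22 in FR NT, 3.22 and 2.46 in FS NT, 5.06 and 3.90 in FR CA, and 6.52 and 6.36 in FS CA. It rose in FS (3.60, SE 0.57, limma adjusted p = 0.00864), and the change in FR of 1.75 (SE 0.57, adjusted p = 0.0943) was not called. Without 1 array the change was 3.22 to 3.98 in FS, called in each fit, and 1.16 to 2.33 in FR. Another probe set of the same gene, Ta.25025.1.S1_x_at, gave 5.53 and 6.08 in FR CA and 6.01 and 6.21 in FS CA, and the lines overlapped. The third, Ta.25025.1.S1_s_at, lay between 2.68 and 3.44 in all CA arrays and also overlapped. The higher level of LOC543480 in FS thus rests on 1 of 3 probe sets. Another gene of the list with the name EM, LOC543497, had FS CA (4.71 and 5.25) above FR CA (3.93 and 4.01) in its probe set Ta.2798.1.S1_s_at, from NT values of 2.15 to 2.28, and its other probe set stayed between 2.99 and 3.08 on all arrays. On the list of COR, LEA and dehydrin names, with 10 probe sets of 5 genes, Ta.25025.1.S1_at of LOC543480 was the only member. Probe sets matched to the Cor/Lea genes of the heat maps could not become members. Of the 10, 7 were called higher in FS and 6 in FR after acclimation and 0 lower, and 0 differed between FS CA and FR CA by limma (4 at an unadjusted p under 0.05).

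LOC543479 (Ta.2799.1.S1_x_at), which has no further name in the gene table, was the brightest of the 39 after acclimation. It went from 8.99 and 8.29 to 10.65 and 10.67 in FR, and from 8.19 and 8.32 to 11.69 and 11.73 in FS. The other probe set of the gene, Ta.64.1.S1_at, was near background in NT crowns, and read 11.51 and 11.57 in FR CA and 11.89 and 11.99 in FS CA. Both probe sets were thus higher in FS CA, by 1.05 and by 0.40, and their NT levels differed.

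In 18 probe sets the signal was 2-fold or more higher in FS after acclimation and within 2-fold of NT in FR. FS changed by 1.05 to 3.04 and FR by -0.96 to 0.96. Limma called 17 higher in FS and 2 in FR, against 16.4% and 15.3% of all probe sets. Ta.26031.2.S1_at was near background on all NT arrays (2.33 and 2.58 in FR, 2.18 and 2.33 in FS) and in FR CA (2.94 and 2.85), and read 5.09 and 5.43 in FS CA. TaAffx.57337.1.S1_at showed the same order, with 2.41 and 2.23 in FR NT, 2.23 and 2.39 in FS NT, 3.24 and 2.90 in FR CA, and 5.36 and 5.34 in FS CA. In FR its increase of 0.75 was called (adjusted p = 0.0143), and it was -0.04 (adjusted p = 0.926) with the arrays centred on the spike-in controls. Another probe set of the first cluster, Ta.26031.2.S1_x_at, was higher in both lines, from 2.15 and 2.70 to 4.41 and 3.99 in FR and from 2.34 and 2.62 to 5.37 on both arrays in FS. Ta.21889.1.S1_at, at a higher level, stood at 7.25 on both FR NT arrays and at 5.67 and 6.89 in FR CA, but at 6.79 and 7.64 in FS NT and 8.27 and 8.26 in FS CA, and was called in neither line.

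The member of the 18 with a gene symbol was LOC780575, or 6-FEH, a fructan exohydrolase, an enzyme that releases fructose from fructan. Its probe set Ta.9641.1.A1_a_at read 3.93 and 5.07 in FR NT, 4.63 and 4.56 in FS NT, 4.77 and 5.03 in FR CA, and 6.34 and 6.02 in FS CA. The increase was 1.58 in FS (SE 0.41, adjusted p = 0.0458), or 3.0-fold, and the difference in FR was 0.40 (adjusted p = 0.676). Without 1 array the change in FS was 1.42 to 1.74, called by limma in 2 of 8 such fits (adjusted p up to 0.184), and that in FR was -0.17 to 0.97. Another probe set of this gene, Ta.30950.1.A1_x_at, showed the same order, with 5.42 and 5.52 in FR CA and 6.35 and 6.19 in FS CA, from 5.07 and 5.12 in FR NT and 5.15 and 4.88 in FS NT. Its change was 1.26 in FS (adjusted p = 0.00219) and 0.38 in FR (adjusted p = 0.118), and its gap of 0.67 left it outside the 100. The remaining probe set of the gene was at the floor on all arrays. A different fructan exohydrolase on the list, 1-FEH (LOC543441), was lower after acclimation in both lines, from means of 12.52 and 12.62 to 10.05 in FR and 10.52 in FS.

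Ta.28748.2.A1_at was the only probe set of the 23537 that was 2-fold or more lower in FR and higher in FS, and this course rests on its NT arrays. It read 10.97 and 7.32 in FR NT and 7.21 and 11.18 in FS NT, but 7.94 and 7.72 in FR CA and 10.73 and 10.84 in FS CA. The change was -1.31 in FR (95% interval -5.99 to 3.36) and 1.59 in FS (-3.09 to 6.26), and neither was called. Without FR NT replicate 1 the FR change was 0.51, and without replicate 2 it was -3.14. In FS it was -0.39 without FS NT replicate 1 and 3.57 without replicate 2. A second member of this cluster, Ta.28748.3.S1_x_at, had the same order of NT arrays (10.52 and 9.76 in FR, 9.47 and 10.51 in FS), with 8.87 and 8.81 in FR CA and 9.81 and 9.84 in FS CA. Of the other probe sets of the cluster, Ta.28748.1.S1_a_at read 12.59 and 11.81 in FR NT and 12.12 and 12.62 in FS NT, with FS CA (11.85 and 11.97) above FR CA (11.03 and 11.29). In Ta.28748.1.S1_at, by contrast, the NT arrays lay between 12.90 and 13.08 and the CA arrays of the lines overlapped, at 11.93 and 12.04 in FR and 12.09 and 11.95 in FS.

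The remaining 11 members were within 2-fold of NT in FS. In the 6 that were lower in FR and within 2-fold in FS, FR changed by -2.25 to -1.26 and FS by -0.61 to -0.17. Limma called 4 lower in FR and 2 in FS, against 13.6% and 13.8% of all probe sets. TaAffx.11844.1.S1_at, chosen after its values were seen, read 7.65 and 7.88 in FR NT, 7.83 and 7.98 in FS NT, 6.32 and 6.22 in FR CA, and 7.56 and 7.37 in FS CA. In TaAffx.128682.3.A1_at, chosen likewise, FR NT 1 and FS NT 2 (6.84 and 7.29) were above FR NT 2 and FS NT 1 (5.98 and 5.91), with 4.52 and 3.80 in FR CA and 6.18 and 6.35 in FS CA. Its FR change of -2.25 was called with a limma adjusted p that rounds to the threshold of 0.05, and it was -2.68 to -1.82 without 1 array. The FS change of -0.34 was -1.03 to 0.35 in these fits. The 5 that were within 2-fold in both lines had changes of -0.93 to 0.28 in FR and -0.27 to 0.97 in FS. Of these 5, 2 were called higher by limma in FS, Ta.26095.1.S1_at (0.97, adjusted p = 0.00248) and TaAffx.18942.1.S1_at (0.95, adjusted p = 0.00871), just under a 2-fold change, and 0 in FR.

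Probe sets of the same clusters that did not enter the 100 were read on the same arrays, and they need not measure the transcripts of the members. There were 135 of these, in 40 clusters, and 57 lay under the array median on all arrays. Of the 64 with an FS CA mean of at least 5, FS CA was wholly above FR CA in 41 and FR CA wholly above FS CA in 7, and the median difference was 0.41. The largest cluster, TaAffx.143995, had 11 of the 64, with FS CA wholly above in 2. Outside it, FS CA was wholly above FR CA in 39 of 53 (73.6%), in 28 clusters, with a median difference of 0.53, where the same held for 32.7% of the 23537 probe sets within the limits and for 15.5% of all 61115. The 64 had a limit on the FS CA mean alone, the group in which the members are high, and none on NT. Their shares are thus not directly comparable with that of the 23537, nor with that of all 61115, which had no limit on the level. These probe sets share RNA, arrays and often sequence with the members, and the members had been chosen for the difference, so that this share is a description.

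Further lists of genes held few or no members. The antioxidant list, with 9 probe sets of 3 genes, had CAT1 as its only member, and 3 of its probe sets were called higher and 4 lower in each line after acclimation. Of the fructan and sucrose list, with 4 probe sets of 2 genes, 6-FEH was the only member, and 2 were called higher and 1 lower in FS and 0 higher and 1 lower in FR (2 at an unadjusted p under 0.05). The lists of cell wall enzymes (2 probe sets), heat shock proteins (1), pathogenesis-related, defensin and lipid transfer proteins (8) and seed storage proteins (17) held no member. Limma called 0 of the probe sets on these 6 lists between FS CA and FR CA, and the counts at an unadjusted p under 0.05 for the CA contrast were 3, 2, 1, 0, 1 and 2 in the order given.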

How the data were processed

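RNA of wheat crowns was measured on 8 Affymetrix wheat arrays. Background correction and normalization were done by the authors with gcRMA (R/Bioconductor), and log2 values were deposited. RMA and GCRMA stand in the processing notes of the submitters. The deposited log2 values were used without further change. In R 4.3.3, limma 3.58.1 was fitted to all 61115 probe sets with 1 mean per group and a variance trend on intensity (degrees of freedom: 4 residual, 0.623 prior), and p-values were adjusted by Benjamini-Hochberg over all of them for each comparison. The code was tested on simulated data. Tables and figures were made with Python 3.11.15. The members and gene lists were chosen with earlier results of these data known. Named probe sets are all members with a symbol, those with the largest gap, rise or fall, those next to the limit, and those sharing a cluster. Names came from the array annotation and a RefSeq gene table (IWGSC CS RefSeq v2.1). No sequences are shown. Alternatives were a filter on dim probe sets, a floor at the array median, quantile normalization, centring on poly-A spike-ins, other variance models, the replicate number as a block, and leaving out each array. Replicate numbers were associated across groups, with an r of deviations of 0.097 for FR NT with FS NT and 0.239 to 0.457 for the others. For FR CA with FS CA it was 0.425. The main fit had no term for the replicate number, and the calls with it as a block are given below.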

Additional observations from a re-analysis of the deposited data

Results flagged for a closer look

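In Ta.21889.1.S1_at both FR CA arrays lay under both FR NT arrays and both FS CA arrays above both FS NT arrays, and the change in FS exceeded that in FR by 2.01 on the log2 scale. The limma fit of this difference had an adjusted p of 1, and the CA arrays had chosen the probe set, so that the difference is a description and was not tested independently. TaAffx.3238.1.S1_at showed the same opposite directions. In FR it stood at 7.10 and 6.47 before and at 5.81 and 6.03 after acclimation, and in FS at 6.36 and 7.0 before and at 7.25 and 7.13 after it. Its difference of 1.37 (limma adjusted p = 0.913) was likewise not tested independently.

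The 42 poly-A spike-in control probe sets, which detect RNAs added to the samples, were 0.77 higher on the CA arrays than on the NT arrays (difference of medians), whereas the median difference between FS CA and FR CA was -0.01. The origin of the shift was not tested.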

How the results depend on the processing

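The number of members called between FS CA and FR CA, 6 as reported, was 20 with dim probe sets left out, 14 with values raised to the array median, 38 with arrays centred on the spike-ins and 0 with robust variances (90 at an unadjusted p under 0.05), and it was 1 to 20 when 1 array was left out (1 without any 1 of the NT arrays, 20 without FR CA replicate 1 and 16 without FR CA replicate 2). With the replicate number as a block 1 member was called, and 3 with the crossed pairing, added after the data were seen. For the difference in response (1 as reported) the numbers were 4 with raised values, 15 with spike-in centring, 0 with robust variances and 1 to 12 without 1 array. Centring on the spike-ins left 21 members (of 39) higher in both lines and 29 (in place of 18) higher in FS alone, and it turned the FR change of TaAffx.57337.1.S1_at to -0.0393. Without 1 array 0 to 1 members were called lower between FS NT and FR NT, 50 to 56 higher and 30 to 31 lower in FS after cold, and 30 to 35 higher and 34 to 38 lower in FR. With the gap taken between group means 60 of the 100 were shared, 80 with an NT limit of 0.25, and 93 after quantile normalization. The causes were not tested. Signals near the floor limit the measured size of changes.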
